A study of Mus musculus with 16 samples.

Results

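Pancreas carrying floxed Daxx alleles was compared with pancreas carrying intact Daxx over all 16 libraries of the study, in mice with caerulein-induced chronic pancreatitis. Caerulein is a cholecystokinin analogue that overstimulates the enzyme-secreting acinar cells. The Daxx-floxed side held 8 libraries, 4 of genotype Daxxfl/flPdx1-CreTg (DC) and 4 of genotype Daxxfl/flMen1fl/flPdx1-CreTg (DMC). The Daxx-intact side held the other 8, 4 wild type (WT) and 4 of genotype Men1fl/flPdx1-CreTg (MC). Every mouse, WT included, was 6 to 10 weeks old and had caerulein at 50 ug/kg per dose, with 4 doses an hour apart on 3 occasions in each of 3 weeks, and was killed 5 days after the last dose. Pdx1-Cre acts in the pancreatic epithelium, whereas the RNA came from whole tissue, so unrecombined cells contributed to every library. WT mice carry no Cre transgene: by genotype, DC against WT differs in Daxx and in Cre, while DMC against MC differs in Daxx alone. The sample descriptions also give each library a number, and these numbers run in blocks that partly follow genotype. The MC numbers form a run that holds WT replicate 4 and no DMC library. What the numbers stand for is not given in the sources used here, and an effect of such blocks cannot be told apart from genotype. Men1 state was the second factor of an additive model, and each gene was also compared within each Men1 state. Of 15156 genes in the table, 14220 had 4 or more libraries at 10 or more normalized counts and were tested. The difference had the same sign in DC minus WT and in DMC minus MC for 7255 of them (51%), of which 3512 were higher (24.7% of all tested) and 3743 lower (26.3%) with floxed Daxx.

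Daxx is a chaperone that, with its partner ATRX, deposits the histone variant H3.3 at heterochromatin, telomeres and repeated elements, where it contributes to the silencing of endogenous retroviruses and of genes near them. It also binds PML bodies and several transcription factors as a corepressor. DAXX, ATRX and MEN1 are the genes most often mutated in human pancreatic neuroendocrine tumours. Menin, the product of Men1, is a scaffold of MLL histone methyltransferase complexes.

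The libraries held 13481063 to 23728309 reads recovered from the normalized counts. As whole pancreas should, all were dominated by acinar enzymes: the mean log2(normalized count + 1) of 29 digestive enzyme genes was 15.64 to 17.38. Libraries of a group were not alike in every respect. The level of B, plasma, T and NK cell genes ran from 3.99 to 8.25 in WT, with WT replicates 2 and 3 highest. DC spanned 4.57 to 6.56, MC 4.33 to 6.48 and DMC 4.31 to 7.17. A clock gene level (mean log2 value of Dbp, Nr1d1, Nr1d2, Per3 and Tef minus the mean of Nfil3, Arntl and Npas2) separated DC, at 2.13 to 3.59, from MC, at -0.79 to -0.18, while WT spread from -0.48 to 2.28 and DMC from -0.68 to 3.46. Y-linked genes were high in 1 DC library and in 2 libraries of each other genotype.

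Daxx itself (chr17:33909414-33915590, GRCm38) was measured at 232, 279, 346 and 196 normalized counts in WT, and at 224, 212, 245 and 212 in DC. It was at 223, 249, 230 and 282 in MC and at 160, 225, 179 and 162 in DMC. The floxed and intact ranges overlapped in both Men1 states, and the mean with floxed alleles was 79.6% of the intact mean (84.9% for DC against WT, 73.8% for DMC against MC). The log2 difference was -0.32 (95% interval -0.57 to -0.08), two-sided p = 0.0171 in the exact permutation test within Men1 states over 4900 assignments, also 0.0171 when adjusted over the 2 targeted genes. Over all genes it did not pass (limma adjusted p = 0.426). Which exons the floxed allele removes is not given in the sources used here, so the gene-level count is no direct measure of recombination. The second targeted gene, Men1, averaged 132 ± 13.3 in MC and 168 ± 10.6 in DMC against 368 ± 61.3 in WT and 482 ± 62.0 in DC (SD, n = 4 each). Its level with floxed Daxx was 131% of WT in DC and 127% of MC in DMC (log2 difference 0.37, exact permutation p = 0.00204, adjusted over the 2 genes 0.00408). That difference in Men1 also did not pass over all genes (limma adjusted p = 0.246).

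Across all genes, 8 rose with floxed Daxx (0.0563% of those tested) and 0 fell (0%) at a limma adjusted p under 0.05. They were Bglap3, Ajuba, Neto1, Pcdh11x, Sult5a1, Grk5, Pax1 and Cd209a. At an unadjusted p under 0.05, 796 genes were higher (5.6%) and 438 lower (3.08%), in all 8.68%, where 711 genes would be a 5% share. By edgeR's quasi-likelihood test on recovered reads 10 rose and 1 fell, and by DESeq2 56 rose and 23 fell. All 8 genes had the same sign in both Men1 states, as did 1205 of the 1234 genes at an unadjusted p under 0.05, which a test of the average of both states favours. For 7 of them, Grk5 being the exception, the floxed and intact libraries did not overlap in either state. Over all genes such separation occurred upward for 15 (0.105%) and downward for 4 (0.0281%). The median log2 difference over all genes was -0.01. Without WT replicates 2 and 3, the libraries with the most lymphoid RNA, 18 genes rose and 10 fell, the 8 genes among the 18.

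**Figure D1:**
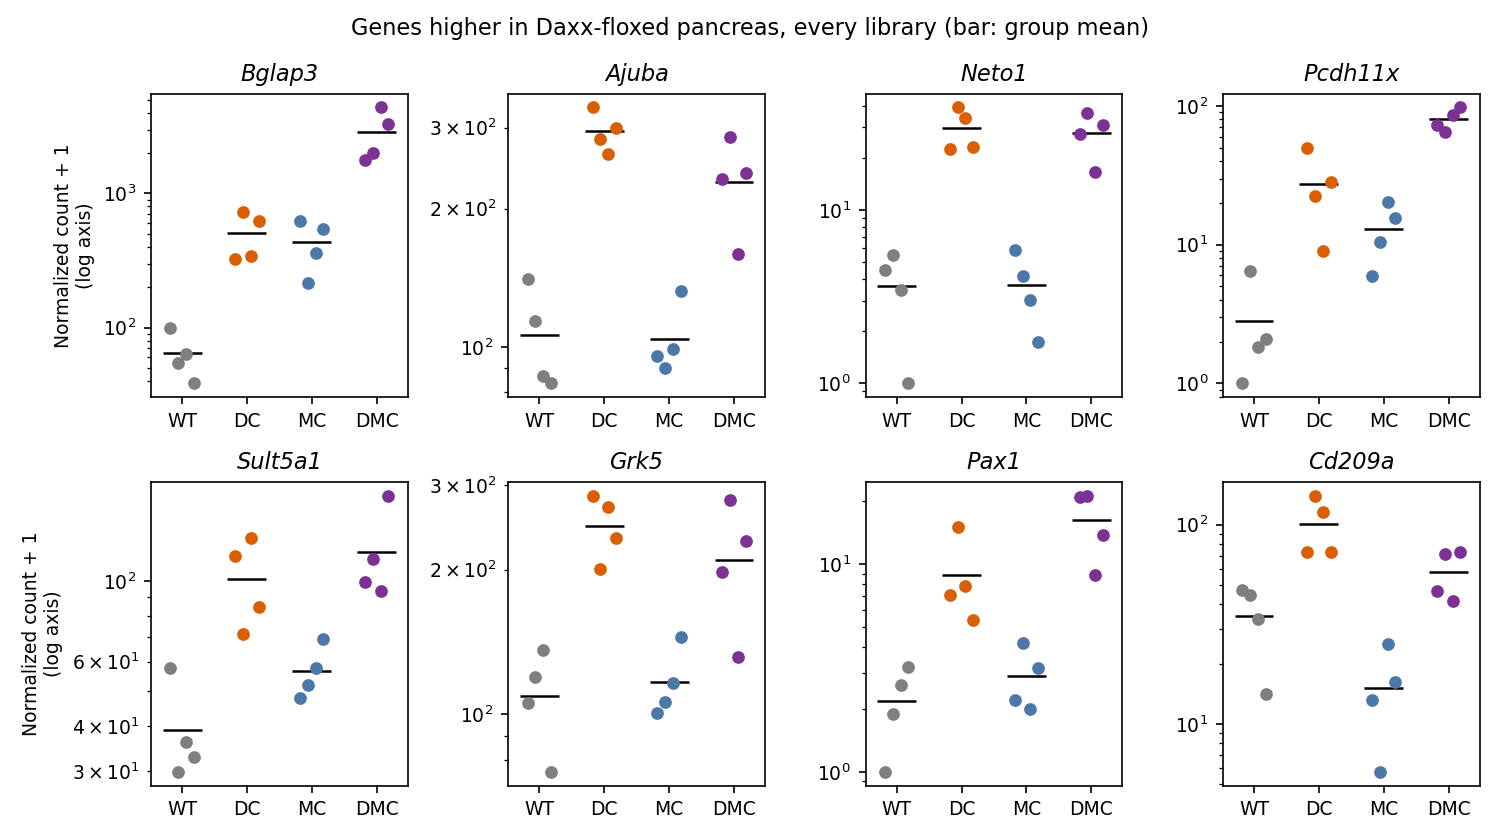
Normalized count plus 1 (log axis, its range set per panel) of the 8 genes that rose with floxed Daxx, with 1 point per library in WT, DC, MC and DMC and a bar at the mean of each group. DC points lie above all WT points in every panel, and DMC points above all MC points in every panel but that of Grk5, where DMC replicate 3 (131) lies below MC replicate 4 (144).

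Bglap3 (chr3:88368616-88372743, minus strand), a gene of the osteocalcin family whose best known members encode a bone matrix protein, had the smallest p. It was at 99.0, 53.3, 62.8 and 37.3 normalized counts in WT and at 326, 731, 338 and 620 in DC. With Men1 floxed it was at 619, 214, 359 and 546 in MC and at 1770, 2010, 4394 and 3289 in DMC. DC and MC covered much the same range, DMC lay above every other library and WT below every other library. The log2 difference was 2.85 ± 0.27 (SE, limma adjusted p = 0.000104), 2.97 in DC minus WT and 2.73 in DMC minus MC, and Bglap3 passed in each state taken singly (limma adjusted p = 0.00993 and 0.0441). Its 440-base and 471-base relatives Bglap and Bglap2 are 96.1% and 97.7% identical to the aligned part of the Bglap3 transcript (GENCODE M21), and how reads shared by the copies were counted is not given in the sources used here. Its level is therefore uncertain. Of the 3 osteocalcin family genes listed, only 1, Bglap3, was in the table of 15156 genes.

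Ajuba (chr14:54567472-54577558, minus strand) encodes a LIM domain scaffold of cell junctions that restrains the LATS kinases of the Hippo pathway. It was at 140, 113, 85.7 and 82.4 in WT, 331, 283, 262 and 298 in DC, 94.4, 88.9, 98.0 and 131 in MC, and 231, 285, 158 and 238 in DMC. WT and MC shared a range, and every floxed library was above every intact library of either state. The log2 difference was 1.31 ± 0.14 (SE, limma adjusted p = 0.00054), 1.5 in DC minus WT and 1.12 in DMC minus MC. Its family members did not pass: Limd1, a LIM scaffold of the same family, had means of 1127 and 875 in WT and DC and of 1173 and 1071 in MC and DMC (log2 difference -0.25), and Wtip, the remaining relative, was at 0.42 (limma adjusted p = 0.321 and 0.461). Of 22 Hippo pathway genes tested, Ajuba alone passed, 12 had a positive difference and the median was 0.06.

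Neto1, on chromosome 18, encodes a transmembrane auxiliary subunit of kainate-type glutamate receptors in neurons. It was at 3.54, 4.52, 2.45 and 0 in WT and 4.90, 3.18, 2.02 and 0.725 in MC, against 21.4, 38.2, 33.0 and 22.01 in DC and 26.4, 35.2, 15.7 and 30.2 in DMC. Intact libraries held 0 to 5 reads and floxed libraries 12 to 52, with no overlap. Floxed minus intact, the log2 difference was 3.12 ± 0.37 (SE, limma adjusted p = 0.000978), 3.24 in DC minus WT and 2.99 in DMC minus MC. At so few reads the size depended on the pseudocount, at 2.09 with a pseudocount of 5 and 3.41 with 0.5.

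Pcdh11x (chrX:120290259-120910619), a protocadherin gene of the X chromosome expressed chiefly in the nervous system, had a similar size of difference at low counts. It was at 0, 5.43, 0.816 and 1.10 in WT, 49.0, 21.6, 7.98 and 27.5 in DC, 4.90, 9.53, 19.2 and 14.5 in MC, and 72.0, 63.6, 84.9 and 96.9 in DMC. DMC stood above all other libraries, while DC and MC overlapped, as they did for Bglap3. Its log2 difference came to 3.06 ± 0.41 (SE, limma adjusted p = 0.00319), 3.38 in DC minus WT, where the WT libraries summed to 8 reads, and 2.75 in DMC minus MC. With a pseudocount of 5 it was 2.23 and with 0.5 it was 3.32. DC replicate 3, at 7 reads, was the floxed library nearest to the intact range of its state. Y-linked levels differ among the libraries, and with them as a covariate the difference was 3.07 (limma adjusted p = 0.00729).

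Sult5a1 (chr8:123140192-123158315, minus strand), a member of the cytosolic sulfotransferase family, was at 56.6, 28.9, 35.1 and 31.8 in WT and 116, 70.5, 130 and 83.6 in DC. It was at 46.6, 50.8, 56.6 and 68.2 in MC and 98.4, 114, 92.8 and 170 in DMC, again without overlap in either state. Its log2 difference was 1.22 ± 0.18 (SE, limma adjusted p = 0.0123), 1.38 and 1.05 in the 2 states.

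Grk5 (chr19:60889749-61095968) encodes a kinase that phosphorylates activated G protein-coupled receptors. It was at 104, 118, 135 and 74.7 in WT, 284, 199, 269 and 232 in DC, 99.3, 105, 115 and 144 in MC, and 197, 279, 131 and 228 in DMC. DC lay wholly above WT, whereas DMC replicate 3 fell within the MC range. On the log2 scale the difference was 1.0 ± 0.16 (SE, limma adjusted p = 0.0264), 1.2 in DC minus WT and 0.81 in DMC minus MC. The gene overlaps Zfp950 on the opposite strand, and the strand setting of the counting is not given in the sources used here, so whether reads of the pair were kept apart is not known here. The same holds for Neto1, Pax1 and Sult5a1, each overlapped by 1 antisense gene, and for Pcdh11x, overlapped by 4 genes of which 1 is on its own strand. Grk5 was no longer called when any of 10 of the 16 libraries was left out.

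Pax1 (chr2:147361925-147393295), a paired-box transcription factor of the vertebral column and thymus, was close to the limit of detection with intact Daxx. WT libraries held 0, 1, 2 and 2 reads and MC libraries 1, 2, 1 and 3, against 10, 17, 6 and 4 in DC and 22, 30, 6 and 14 in DMC. Its log2 difference of 2.25 ± 0.37 (SE, limma adjusted p = 0.0264) depended on the pseudocount, at 1.26 with a pseudocount of 5 and 2.58 with 0.5. Pax1 lost its call when any of 8 libraries was left out.

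Cd209a (chr8:3743397-3748984, minus strand) encodes a C-type lectin of dendritic cells. It was at 46.0, 43.4, 32.6 and 13.2 in WT, 71.6, 139, 115 and 71.5 in DC, 12.3, 4.76, 24.3 and 15.2 in MC, and 45.5, 70.4, 40.5 and 72.2 in DMC. Floxed libraries were above intact ones in each state, although DMC overlapped WT. In log2 units Cd209a differed by 1.84 ± 0.31 (SE, limma adjusted p = 0.0326), 1.61 in DC minus WT and 2.08 in DMC minus MC. Of 12 dendritic cell genes tested, Cd209a alone passed, and the median was -0.04. In whole tissue, more cells of a type and more RNA per cell cannot be told apart, nor can fewer cells and less RNA per cell. Cd209a too lost its call when any of 8 libraries was left out, and its adjusted p with the Y-linked level as a covariate was 0.051 (limma).

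The additive fit that called these 8 genes favours those with like differences in both Men1 states, so their likeness is no separate result. Over all genes 0 differed between the states (0%) by limma at an adjusted p under 0.05, with 1156 at an unadjusted p under 0.05 (8.13%). EdgeR also called 0 for the difference between states, whereas DESeq2 called 43. In DC minus WT alone 3 genes passed (0.0211%), namely Bglap3, Ajuba and Obp2b, and in DMC minus MC alone 1 (0.00703%), Bglap3. These counts by state moved with single libraries, including libraries outside the contrast. DC minus WT gave 19 calls without WT replicate 3 and 0 without WT replicate 4 or DC replicate 2. DMC minus MC gave 19 calls without WT replicate 4, and 0, Bglap3 included, when any of 11 libraries was left out. The difference between states gave 8 calls without WT replicate 4, 6 without WT replicate 3, 2 without WT replicate 1 and 1 without MC replicate 3.

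Obp2b, an odorant-binding lipocalin gene, was 1 of the 3 genes called in DC minus WT but lay far from the diagonal of the plot of both states. It was at 8.84, 9.04, 22.03 and 13.2 in WT and 280, 207, 176 and 135 in DC. In MC it was at 0, 0, 0 and 2.90 and in DMC at 2.73, 0, 1.31 and 2.74. The DC libraries were all far above WT, and the Men1-floxed libraries were all at or near 0 whatever their Daxx alleles. Its log2 difference was 3.85 in DC minus WT (limma adjusted p = 0.0135) and 0.76 in DMC minus MC, with a difference between states of -3.09 (limma adjusted p = 0.335). The average over both states was 2.31 (limma adjusted p = 0.24).

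**Figure D2:**
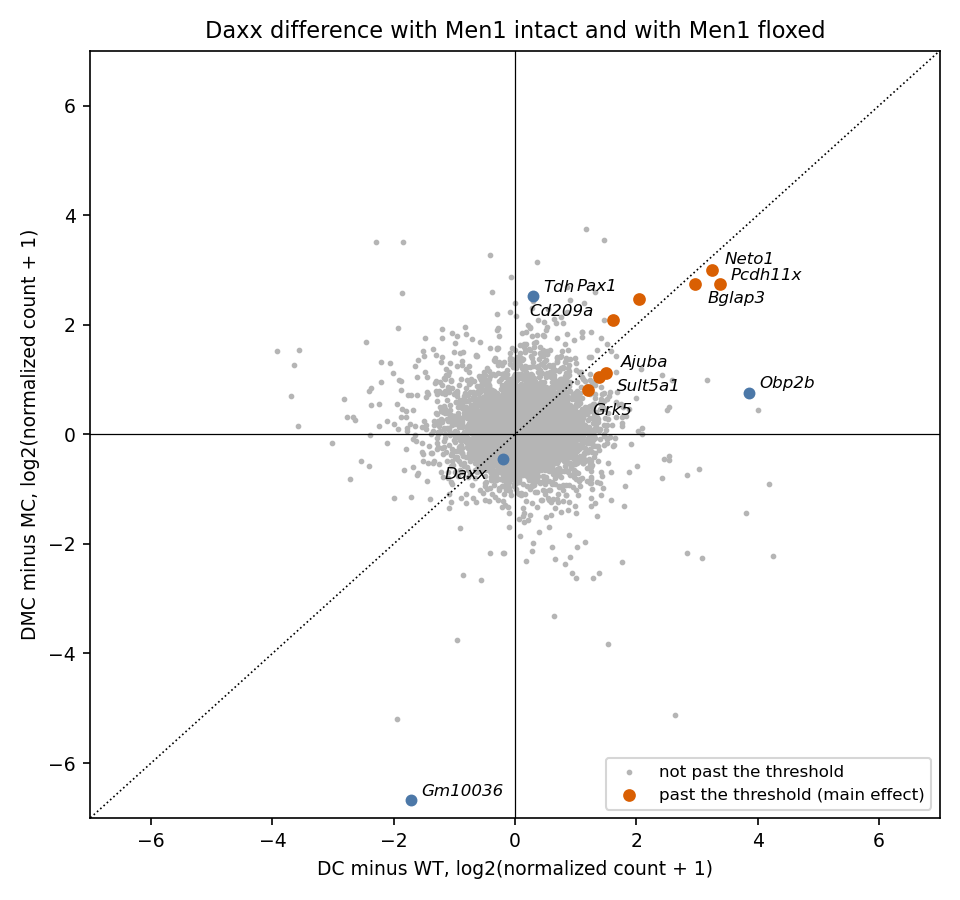
Each of 14220 genes by its log2 difference in DC minus WT (horizontal axis) and in DMC minus MC (vertical axis), with the dotted line marking equal differences. The 8 genes past the threshold of the main effect (orange) lie at the upper right near that line, Obp2b (3.85 and 0.76) and Tdh (0.29 and 2.53) lie near 1 axis each, and Gm10036 is at -1.72 and -6.67.

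RefSeq promoter sequences (GRCm38.p6) were at hand for 6 of the 8 genes that rose, Neto1 and Pcdh11x being the ones without. The CG dinucleotides, the sites of DNA methylation in mammals, were counted in the 250 bases before the start. Bglap3 held 8, 5 and 6 at its 3 annotated starts, Ajuba 7, Sult5a1 5, Pax1 10, Grk5 13 and Cd209a 1. The median over 14172 promoters of 11086 tested genes was 14, with quartiles at 7 and 22. A CG was present in 98.4% of those promoters, so its mere presence sets none apart, and these counts carry no test. The promoters of 4 of these genes are shown because they span that range, 5′ to 3′ on the gene's strand, in lower case with each CG in capitals, at chr3:88372742-88372991 (minus strand) for the outermost start of Bglap3, chr14:54577662-54577911 (minus) for Ajuba, chr19:60889499-60889748 (plus) for Grk5 and chr8:3748985-3749234 (minus) for Cd209a.
Bglap3: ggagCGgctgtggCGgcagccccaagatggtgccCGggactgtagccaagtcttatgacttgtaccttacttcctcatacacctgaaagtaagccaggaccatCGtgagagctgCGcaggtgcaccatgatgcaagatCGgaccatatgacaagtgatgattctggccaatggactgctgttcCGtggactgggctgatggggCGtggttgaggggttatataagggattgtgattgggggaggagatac
Ajuba: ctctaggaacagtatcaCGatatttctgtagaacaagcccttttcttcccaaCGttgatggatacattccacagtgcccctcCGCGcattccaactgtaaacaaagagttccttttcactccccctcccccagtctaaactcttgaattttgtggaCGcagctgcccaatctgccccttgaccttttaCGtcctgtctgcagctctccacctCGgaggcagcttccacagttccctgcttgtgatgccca
Grk5: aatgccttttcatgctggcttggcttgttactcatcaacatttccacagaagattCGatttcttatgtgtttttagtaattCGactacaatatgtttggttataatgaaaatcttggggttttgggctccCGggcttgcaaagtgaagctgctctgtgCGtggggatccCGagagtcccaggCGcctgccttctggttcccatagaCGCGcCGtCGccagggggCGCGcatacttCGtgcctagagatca
Cd209a: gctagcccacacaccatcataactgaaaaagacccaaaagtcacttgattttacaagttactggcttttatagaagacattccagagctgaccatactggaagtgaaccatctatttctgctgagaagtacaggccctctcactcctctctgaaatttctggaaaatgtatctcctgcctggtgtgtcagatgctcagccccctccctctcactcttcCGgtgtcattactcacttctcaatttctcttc

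The runs show scattered CGs through Bglap3 and Ajuba, a denser stretch near the start of Grk5 and a single CG in Cd209a.

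Genes around the 8 that rose were examined within 200 kb, with distances taken between the lower genomic coordinates of 2 genes. Of 59 neighbours tested, 5 were higher and 3 lower at an unadjusted p under 0.05, and none passed after adjustment. These are 8.47% and 5.08%, against 5.6% and 3.08% over all genes, and the difference was not tested. Ajuba had the neighbour with the smallest p, Haus4, which encodes a subunit of the augmin complex of the mitotic spindle. Haus4 lies 25.7 kb from Ajuba on the same strand and was singled out after its values were seen. It was at 97.2, 124, 122 and 62.6 in WT, 169, 183, 96.9 and 266 in DC, 62.5, 34.9, 55.6 and 59.5 in MC, and 152, 181, 116 and 161 in DMC. DMC and MC were apart, while DC replicate 3 fell within WT. Its log2 difference was 1.15 (limma adjusted p = 0.0961), 0.77 in DC minus WT and 1.52 in DMC minus MC. Cdh24, a cadherin gene 63.8 kb away on the same strand and also chosen after its values were seen, was at 0.88 (limma adjusted p = 0.436). In all, 3 neighbours of Ajuba were higher and 2 lower at an unadjusted p under 0.05. Beside Haus4 and Cdh24 these were Mmp14 at 0.43, Lrp10 at -0.18 and 1700123O20Rik at -0.22. The 9 other neighbours of Ajuba with an unadjusted p of 0.05 or more lay between -0.21 and 0.36 on the log2 scale. Bglap3 and Grk5 had no neighbour with an unadjusted p under 0.05 among 14 and 5.

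**Figure D3:**
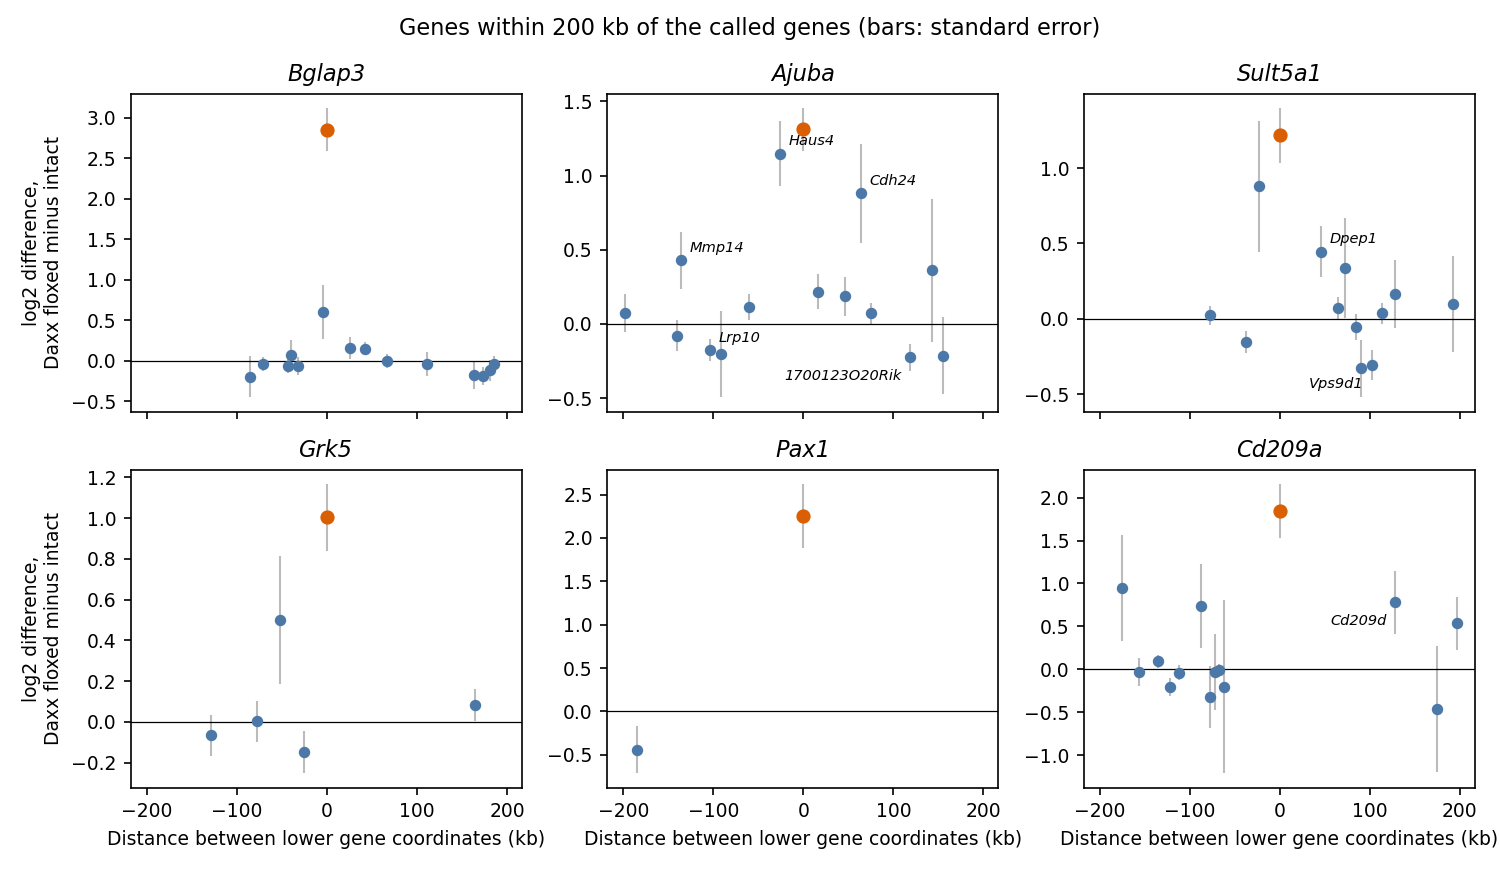
Log2 difference of floxed minus intact Daxx (vertical axis, bars are standard errors) against distance in kb between lower gene coordinates (horizontal axis) for genes within 200 kb of 6 of the genes that rose (orange), with names given to neighbours at an unadjusted p under 0.05. Haus4 (1.15) and Cdh24 (0.88) stand nearest in height to Ajuba (1.31), while the 14 neighbours of Bglap3 lie far below its 2.85.

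Around Daxx itself, where alleles linked to a floxed locus travel with it, 192 genes within 5 Mb on chromosome 17 were tested. None passed, 12 were higher and 4 lower at an unadjusted p under 0.05, 97 had a positive difference and the median was 0.00. The shares of 6.25% and 2.08% are near those over all genes (5.6% and 3.08%). Without this window the count of genes that rose over all others was 8, as with it.

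Among the genes just outside the threshold were Spock3 and Cry2. Spock3, which encodes a testican proteoglycan of the extracellular matrix, was at 5.30, 21.7, 17.95 and 29.7 in WT, 79.6, 80.5, 60.4 and 62.7 in DC, 12.3, 12.7, 22.2 and 16.7 in MC, and 27.3, 33.8, 36.6 and 53.9 in DMC. Its floxed libraries were above the intact ones in both states, at a log2 difference of 1.63 (limma adjusted p = 0.057). Cry2, a repressor of the circadian clock, averaged 203 and 357 in WT and DC, and 182 and 271 in MC and DMC. Its log2 difference was 0.68 (limma adjusted p = 0.0581), and DMC replicate 3 (201.2) lay within the MC range. Without overlap in both states but not past the threshold were also Hcar1, a lactate receptor gene of adipocytes, at 9.0, 25.9, 8.9 and 26.4 (means of WT, DC, MC and DMC), Ces1d, a carboxylesterase gene, at 534, 820, 475 and 637, Gulo, the last enzyme of vitamin C synthesis, Sim1, a bHLH-PAS transcription factor, and Ank1, an ankyrin. These 5 were chosen after their values were seen, with log2 differences of 1.58, 0.54, 1.11, 0.64 and 0.56 (limma adjusted p of 0.103 to 0.319).

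On the lower side no gene passed, and the 10 smallest p-values are given as values. Smim3, which encodes a small membrane protein, was at 99.0, 86.8, 79.1 and 72.5 in WT, 60.0, 60.6, 42.2 and 39.6 in DC, 156, 143, 90.0 and 102 in MC, and 61.9, 74.4, 70.5 and 82.2 in DMC. Floxed libraries lay below intact ones in both states (log2 difference -0.73, limma adjusted p = 0.101). Cmpk2, a mitochondrial nucleotide kinase induced by interferon, averaged 217, 146, 365 and 228 in WT, DC, MC and DMC (-0.62, limma adjusted p = 0.101), likewise without overlap. Ubb, a polyubiquitin gene, showed a small but separated difference, with WT at 2069 to 2585 and DC at 1632 to 1989, and MC at 2338 to 2559 and DMC at 1995 to 2211 (-0.29, limma adjusted p = 0.24). The remaining 6 with an established symbol, Ptp4a2, a phosphatase, Parm1, a membrane mucin, Ltk, a receptor tyrosine kinase, Hmgxb4, an HMG-box protein, Abtb2, an ankyrin repeat protein, and Ikzf2, the transcription factor Helios, had log2 differences from -0.84 to -0.29 and a limma adjusted p of 0.24 each.

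Gm10036, an unnamed gene model on chromosome 18, was the tenth of these and had values of 2 widely separate sizes. It was at 3.54, 4.52, 8.16 and 547 in WT, 7.96, 7.47, 2.28 and 3.302 in DC, 208, 410, 558 and 545 in MC, and 2.73, 1.35, 3.92 and 4.57 in DMC. WT replicate 4 and all MC libraries were high, and every other library was at 8.16 or below. Its log2 difference stood at -4.20 (limma adjusted p = 0.24), and edgeR called it (-5.79, edgeR adjusted p = 0.0275). The high libraries are also those whose numbers in the sample descriptions fall in the MC run, and no other library's number does. What those numbers stand for is not known here, and their part in this difference was not tested.

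No gene passed in the lists of Daxx complexes and of silencing factors. These lists hold genes of the proteins that take part. Retroelement transcripts, and genes near retroelements as a set, were not examined here. Of 12 H3.3 genes and chaperones tested, 0 were higher and 1, Daxx itself, was lower at an unadjusted p under 0.05, and the median log2 difference was -0.02. Atrx, the partner of Daxx in H3.3 deposition, averaged 2659 and 2804 in WT and DC, and 2450 and 2675 in MC and DMC (0.10, limma adjusted p = 0.725). Of 23 heterochromatin and retroelement silencing genes 0 passed and the median was 0.00. Cbx5, which encodes the heterochromatin protein HP1 alpha, had a log2 difference of 0.07, and Trim28, the corepressor of KRAB zinc finger proteins, one of -0.06 (limma adjusted p = 0.811 and 0.823). For Trim28 this averaged -0.23 in DC minus WT and 0.10 in DMC minus MC (difference between states 0.33, limma adjusted p = 0.495). Its DC libraries (1242 to 1353) lay below WT (1464 to 1694), while DMC (1487 to 1590) overlapped MC (1352 to 1533). Of 17 PML body and Daxx partner genes and 10 menin and MLL complex genes 0 passed, with medians of 0.00 and -0.02. Pml, the organizer of PML bodies, was the 1 gene of its list at an unadjusted p under 0.05, at a log2 difference of -0.33, and Men1 the 1 gene of the menin list.

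The list of clock repressors and PAR bZIP factors had the highest median among the lists with 5 or more members tested, although none of its members passed. The clock runs as a loop in which CLOCK and ARNTL activate the genes of their own repressors, and the PAR bZIP factors DBP, TEF and HLF carry the rhythm to output genes. Of 13 repressor and PAR bZIP genes all 13 had a positive difference and 11 were higher at an unadjusted p under 0.05, with a median of 0.72 (1.09 in DC minus WT, 0.54 in DMC minus MC). The second clock list, labelled activator arm in the plot of list medians, held 6 genes, all with a negative difference and 3 lower at an unadjusted p under 0.05, with a median of -0.32. That list is mixed, however: beside the activators it holds Cry1 (-0.22) and Nfil3 (-0.41), whose products repress transcription, and it was drawn up with earlier results of these data known. With both counted as repressors, a grouping chosen after seeing the data, 13 of 15 repressor and PAR bZIP genes were positive and 2 negative (median 0.69), and all 4 activators (Arntl, Clock, Npas2 and Rora) were negative (median -0.57). Cry1 and Nfil3 thus had the sign of the activators, and whether the clock as a whole was shifted was not tested. Over all genes the median was -0.01, 48.4% were positive and, as above, 5.6% were higher at that p. Members of a list were measured in the same libraries, so these counts are a description and not a test.

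Library values of the clock genes did not follow the Daxx alleles evenly. Apart from members given as most abundant, the clock, glucocorticoid, adipocyte, mesothelial and mast cell genes named here and below were chosen after their values were seen. Nr1d1, which encodes the repressor REV-ERB alpha, was at 113, 82.3, 283 and 54.9 in WT and at 217, 312, 557 and 395 in DC, with WT replicate 3 the only WT library in the DC range. It was at 71.1, 61.9, 42.5 and 50.1 in MC and at 153, 422, 66.6 and 51.2 in DMC. DMC replicates 1 and 2 were high and replicates 3 and 4 lay within the MC range. Arntl, the activator, showed the opposite order, at 185, 116, 112 and 89.2 in DC, at 241 and 139 in DMC replicates 1 and 2, and at 549 and 472 in DMC replicates 3 and 4. Nr1d1 had a log2 difference of 1.39 and Arntl one of -1.15 (limma adjusted p = 0.336 and 0.252). Dbp was at 1.08, Tef at 0.72, Per3 at 1.04, Ciart at 0.92 and Nr1d2 at 0.85, while Npas2, Nfil3 and Clock were at -0.93, -0.41 and -0.21 on the same scale. Fkbp5 and Zbtb16, targets of the glucocorticoid receptor, split DMC in the same way: Fkbp5 was at 1890, 2756, 315 and 479 and Zbtb16 at 1010, 1918, 328 and 269. Of 15 glucocorticoid-responsive genes 7 were higher and 0 lower at an unadjusted p under 0.05, with a median of 0.33. That median was 0.03 with the clock gene level as a covariate. Mt1, among the most abundant members, averaged 9129 and 6423 in WT and DC, and 6392 and 6198 in MC and DMC. Sgk1, also among them, averaged 2766 and 2405 in WT and DC, and 2351 and 2413 in MC and DMC. The hour of tissue collection is not given in the sources used here. With the clock gene level as a covariate only Bglap3 passed (log2 difference 2.94, limma adjusted p = 0.0101). The 7 other genes that rose then had log2 differences of 0.63 (Grk5) to 3.39 (Pcdh11x), 1.11 for Ajuba and 2.69 for Neto1, at limma adjusted p of 0.104 to 0.661. Without the covariate Grk5 was at 1.0 and Pcdh11x at 3.06. The clock level was measured in the same libraries and ran at 2.13 to 3.59 in DC against -0.48 to 2.28 in WT. This fit therefore cannot fully separate it from Daxx state, and a lost call need not mean a smaller difference. The hour of collection as a source of these differences was not tested.

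Promoters of the clock list were scanned for the E-box CACGTG, the element that CLOCK and ARNTL bind, and for the D-box TTATGTAA of the PAR bZIP factors, on both strands of the 250 bases before the start. In the lists as drawn up, an E-box stood in 4 of 11 repressor and PAR bZIP genes with a sequence (Ciart, Tef, Per1 and Bhlhe41). It stood in 1 of 6 genes of the second clock list, Cry1. With Cry1 and Nfil3 counted as repressors, the grouping chosen after seeing the data, the counts were 5 of 13 and 0 of 4. Of all promoters of tested genes 7.83% held an E-box. The counts are of genes with a match at any annotated start and the percentage is of single promoters, so their units differ. Ciart held 3 E-boxes, and 0.092% of promoters held 3 or more. The D-box was found in Per3, in 2 copies, against 0.51% of promoters with any. Neither occurred in the promoters of the 6 genes that rose. A match of letters shows neither binding nor a cause. The 2 promoters with the most matches are shown with the E-boxes of Ciart and the D-boxes of Per3 in capitals, at chr3:95882229-95882478 (minus strand) and chr4:151044666-151044915 (minus strand).
Ciart: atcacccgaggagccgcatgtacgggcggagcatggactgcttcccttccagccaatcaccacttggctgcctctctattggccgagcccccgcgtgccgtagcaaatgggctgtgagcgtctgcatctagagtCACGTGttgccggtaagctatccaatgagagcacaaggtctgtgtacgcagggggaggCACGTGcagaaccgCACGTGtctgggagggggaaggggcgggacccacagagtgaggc
Per3: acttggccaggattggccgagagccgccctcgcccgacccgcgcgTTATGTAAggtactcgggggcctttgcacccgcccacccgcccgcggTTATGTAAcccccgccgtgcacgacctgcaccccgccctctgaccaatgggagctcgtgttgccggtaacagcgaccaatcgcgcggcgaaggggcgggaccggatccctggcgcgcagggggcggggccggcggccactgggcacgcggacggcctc

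In Ciart the E-boxes lie in the part of the run towards the start, and in Per3 the D-boxes lie in the part farther from it.

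**Figure D4:**
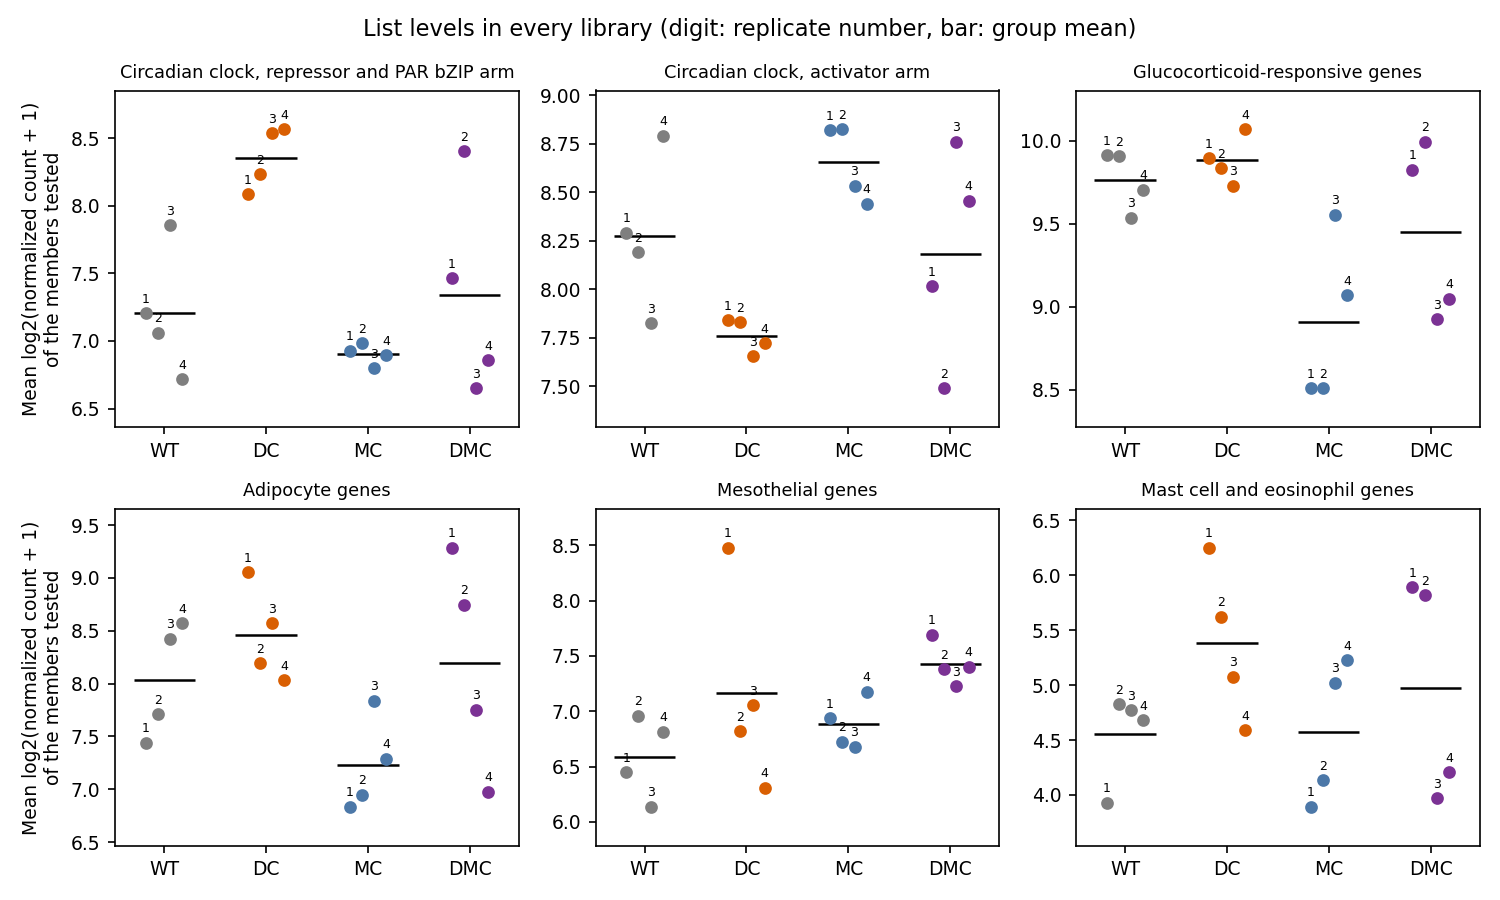
Mean log2(normalized count + 1) of the tested members of 6 gene lists (vertical axis, range set per panel) in every library of WT, DC, MC and DMC, with the replicate number above each point and a bar at the group mean. For the glucocorticoid list DMC replicates 1 and 2 lie within the DC range and 3 and 4 within the MC range. For the clock repressor list DMC replicate 2 (8.40) lies within the DC range and replicate 1 (7.47) between MC and DC, and the adipocyte and mast cell lists are highest in DC replicate 1 and DMC replicates 1 and 2.

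Several lists of genes of other cell types lay higher with floxed Daxx, again with no member past the threshold. Of 21 adipocyte genes 20 had a positive difference and 8 were higher at an unadjusted p under 0.05. Their median was 0.68 (0.37 in DC minus WT, 1.09 in DMC minus MC). It was 0.44 without DMC replicate 1 and 0.29 with the clock level as a covariate. Lep, which encodes leptin, was at 8.84, 12.7, 45.7 and 39.5 in WT, 208, 34.01, 71.8 and 26.4 in DC, 9.80, 1.59, 11.1 and 3.63 in MC, and 158, 32.5, 7.84 and 10.1 in DMC. DC replicate 1 and DMC replicate 1 were highest and the groups overlapped. Adipoq (adiponectin), Plin1, which coats lipid droplets, and Slc2a4, the insulin-responsive glucose transporter, had log2 differences of 1.13, 1.11 and 1.07 (limma adjusted p of 0.406 to 0.571). Fasn, among the most abundant members, averaged 3496 and 5014 in WT and DC, and 3002 and 3023 in MC and DMC. Scd1, also among them, averaged 2788 and 3626 in WT and DC, and 1127 and 1986 in MC and DMC. Of 10 mast cell and eosinophil genes 8 were positive and 4 higher at an unadjusted p under 0.05, with a median of 0.61. This median was 0.19 with a mean of at least 50 required and 0.11 with the clock level as a covariate. Among them the mast cell proteases Cpa3, Mcpt4 and Cma1 were at 0.87, 1.79 and 1.12. Kit, among the most abundant members, averaged 728 and 465 in WT and DC, and 497 and 531 in MC and DMC. Ear2, also among them, averaged 44.4 and 95.9 in WT and DC, and 79.7 and 85.7 in MC and DMC. Adipose and mast cell levels were both highest in DC replicate 1 and in DMC replicates 1 and 2.

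Mesothelial genes, which mark the lining of the organ's surface, had a positive median in both Men1 states. Of 11 tested, 10 were positive and 5 higher at an unadjusted p under 0.05, with a median of 0.62 (0.58 in DC minus WT, 0.64 in DMC minus MC). In DC the list level was 8.48, 6.82, 7.05 and 6.31 against 6.14 to 6.96 in WT, so only DC replicates 1 and 3 lay above WT, and the median was 0.41 without DC replicate 1. In DMC all libraries, at 7.23 to 7.69, lay above MC, at 6.68 to 7.18. Muc16, the CA125 mucin of that lining, was at 179, 162, 141 and 115 in WT, 1107, 227, 471 and 207 in DC, 260, 200, 173 and 156 in MC, and 374, 267, 321 and 260 in DMC. Every floxed library was above the intact libraries of its state, with DC replicate 1 far above the rest (log2 difference 1.03, limma adjusted p = 0.321). Wt1, a transcription factor of mesothelium, and Lrrn4 were each at 0.78. Krt19, among the most abundant members of the list, averaged 676 and 431 in WT and DC, and 634 and 529 in MC and DMC. Its WT libraries ran from 223 to 1600. How much of the surface tissue each sample held is not given in the sources used here, and its part in these differences was not tested.

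Exocrine lists had negative medians of varying stability. Of 29 acinar digestive enzyme genes 25 had a negative difference, 1 was lower and 2 higher at an unadjusted p under 0.05, with a median of -0.32 (-0.58 in DC minus WT, -0.01 in DMC minus MC). Only 13 of the 29 were negative in both states, and the median was -0.04 with quantile scaling and -0.19 without DC replicate 1. Of 9 acinar transcription factor genes 8 were negative, with a median of -0.18 that ran from -0.38 to -0.01 over the alternatives. Of 34 unfolded protein response and folding genes, which serve the secretory load of acinar cells, 28 were negative and 0 reached an unadjusted p under 0.05, with a median of -0.13 (-0.03 with library quality weights). Of 6 Reg genes, secreted proteins of the injured pancreas, 5 were negative and 3 lower at that p, with a median of -0.54. That median was -1.09 in DC minus WT and -0.25 in DMC minus MC, and 3 of the 6 were negative in both states. With the clock level as a covariate it was 0.14. Reg2 averaged 24170 and 6269 in WT and DC, and 65970 and 44310 in MC and DMC, and its DMC libraries ran from 10940 to 120100 (log2 difference -1.29, limma adjusted p = 0.487). Leaving hormones aside, 26 of 31 islet endocrine genes were positive, with a median of 0.35 and 0 at an unadjusted p under 0.05. That median was 0.05 with library quality weights, 0.76 with the clock level as a covariate, and 0.13 to 0.18 without DMC replicate 4, DC replicate 1, MC replicate 1 or WT replicate 3.

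**Figure D5:**
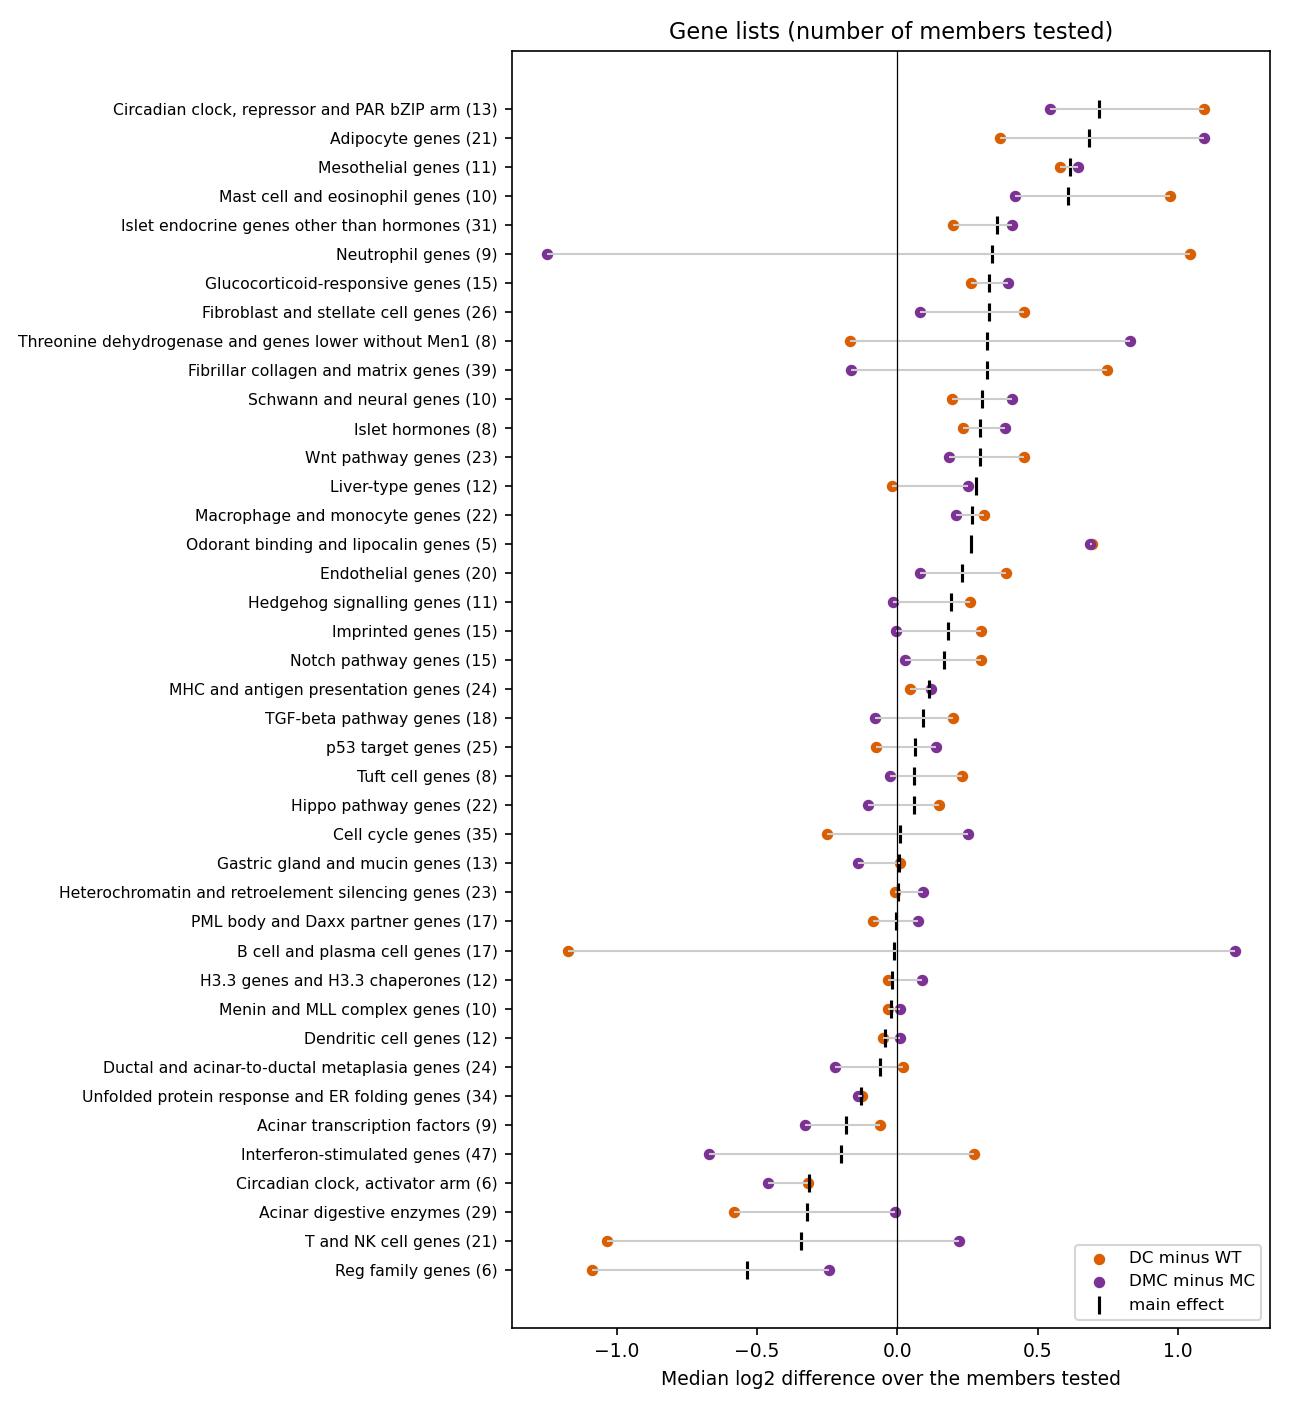
Median log2 difference over the tested members of each gene list with 5 or more (horizontal axis) in DC minus WT (orange), in DMC minus MC (purple) and in the main effect (black tick, which as a median need not lie between the others). Both points lie to the right of 0 for the clock repressor (0.72), adipocyte (0.68), mesothelial (0.62) and mast cell (0.61) lists, and far apart on opposite sides of 0 for neutrophil, B and plasma cell, and T and NK cell lists.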

How the data were processed

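Whole-pancreas RNA of 16 mice, 4 per genotype, was sequenced after a TruSeq Stranded Total RNA preparation, per the labels' protocols, which call the 4 independent biological replicates. Reads were aligned with STAR 2.6.0b to GRCm38 and normalized with DESeq2, per the submitters' processing notes. Neither the counter, its strand setting, the annotation release nor a gene filter is given in the sources used here. What the authors deposited is a signal, normalized counts per gene, that is, counts divided by a size factor per library.

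Of 15156 genes, 14220 had 4 or more libraries at 10 or more normalized counts, and these were tested with limma 3.58.1 (R 4.3.3, trend) on log2(normalized count + 1), with Daxx and Men1 state as additive factors and Benjamini-Hochberg adjustment over all tested genes at 0.05. Fold changes are on that scale, which understates those of low genes. Contrasts within each Men1 state and their difference came from a fit with 1 coefficient per group. Daxx and Men1 were also tested by exact permutation within Men1 states. The values were whole multiples of 1 step per library (100% within 0.01), which gave back 13481063 to 23728309 reads per library, and on these reads edgeR 4.0.16 called 11 genes and DESeq2 1.42.0 called 79. A floor of 3 reads equals 1.84 to 5.3 normalized counts and covers counting error only. Libraries of a group differed beyond counting noise (chi-square per degree of freedom 8.63 to 132.55 over 24 pairs).

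The comparison, its members and the 43 gene lists were chosen with earlier results of these data known. Named genes are Daxx and Men1 and genes past 0.05 in the main effect or in either state. Otherwise the 10 smallest p-values in a direction are given as values. Of each list described the called members are named. The plan to name up to 2 most abundant members where none was called was followed for only some lists. Other genes named, among them Limd1, Wtip, Pml, Reg2, Lep, Adipoq, Cpa3, Wt1 and Fkbp5, were chosen after their values were seen. A list's level is the mean log2(normalized count + 1) of its tested members, and lists carry no test. A gene left out of one list is not reported here. Positions are from GENCODE M21, matched for 15152 genes, and promoters from RefSeq (GRCm38.p6). In 23 rows the symbol had been turned into a date, and these are not named. The alternatives were other scalings, pseudocounts, filters, tools, covariates and left-out libraries. The fit was tested on simulated data.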

Additional observations from a re-analysis of the deposited data

Results flagged for a closer look

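In 8 of 212 groups of 4 libraries examined, the highest or lowest library lay far from the others relative to the range of its group. Chance flags about 1 in 20 such groups. Men1 in WT replicate 3, at 459 normalized counts, was above the other WT libraries. The levels that follow are mean log2(normalized count + 1) over a list. The Reg family level was 14.28 in MC replicate 1, the fibrillar collagen level 10.29 in MC replicate 4 and the endothelial level 7.12 in DMC replicate 3. The B and plasma cell level was 7.02 in MC replicate 3, the mast cell and eosinophil level 3.93 in WT replicate 1 and the Notch pathway level 6.74 in MC replicate 1. The Y-linked level was 9.27 in DC replicate 1, the only DC library with high Y-linked expression.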

How the results depend on the processing

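Of the 8 genes that rose, none changed sign under any alternative. Bglap3 lost its call only with Men1 state left out of the model (limma adjusted p = 0.393), and Ajuba, Sult5a1 and Neto1 only with the clock level as a covariate (0.104, 0.485 and 0.191). The replicate numbers did not pair libraries: same-numbered libraries of different groups correlated at -0.37 to 0.38 over 24 pairs, 11 of them over 0.1. With a replicate block 5 genes rose and 0 fell, all 5 the same way in both states, and Grk5, Pax1 and Cd209a were lost (limma adjusted p = 0.118, 0.0954 and 0.119). With Men1 state left out 4 rose, with a mean of at least 50 required 4, and with the clock level as a covariate 1, each the same way in both states. DESeq2 gave 56 higher and 23 lower, 79 with the same direction, edgeR 10 and 1, and leaving out WT replicates 2 and 3 gave 18 and 10, 28 with the same direction. Leaving out 1 library at a time gave 5 to 11 higher, 0 to 1 lower and 5 to 12 with the same direction. It gave 0 to 19 calls in DC minus WT and in DMC minus MC, and 0 to 8 for the difference between states, which DESeq2 put at 43. The Daxx difference ran from -0.39 to -0.25. With the clock level as a covariate Atrx was at -0.0118, Per3 at -0.15, Ciart at -0.36, Npas2 at 0.26, Fkbp5 at -0.25 and Reg2 at 0.11, each of opposite sign. Per3 and Npas2 are part of that level, so their values are set by its construction and are no result; for the others the cause was not tested. With upper quartile scaling 54.6% of genes were positive against 48.4%. Genes near the floor, such as Pax1, are limited by depth.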

Other observations

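For several immune and stromal lists the medians of DC minus WT and DMC minus MC had opposite signs, and for none was the difference tested. Neutrophil genes were at 1.04 and -1.25 (9 tested), T and NK cell genes at -1.03 and 0.22 (21), and B and plasma cell genes at -1.17 and 1.2 (17). Interferon-stimulated genes were at 0.27 and -0.67 (47) and fibrillar collagen and matrix genes at 0.75 and -0.17 (39). None of these members passed the main effect. Without WT replicates 2 and 3 the main-effect median of T and NK cell genes moved from -0.34 to 0.38, and that of B and plasma cell genes from -0.01 to 0.91. The WT level of B, plasma, T and NK cell genes spread from 3.99 to 8.25, against 4.57 to 6.56 in DC.

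Tdh, the threonine dehydrogenase gene, chosen after its values were seen, was at 125, 122, 85.9 and 116 normalized counts in MC and at 465, 637, 763 and 774 in DMC. In WT it was at 2714, 1716, 960 and 495 and in DC at 1295, 1926, 1019 and 1955. DMC lay above MC without overlap, while WT and DC overlapped. The log2 difference was 2.53 in DMC minus MC (limma adjusted p = 0.0509) and 0.29 in DC minus WT, with a difference between states of 2.24 (limma adjusted p = 0.335).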
